A study of Homo sapiens with 6 samples.

Results

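The interferon regulatory factors (IRFs) were examined together with *IFNB1*, the gene for interferon-β, in U251, a human cell line that was established from a glioblastoma. The 9 genes were *IRF1*, *IRF2*, *IRF3*, *IRF4*, *IRF5*, *IRF7*, *IRF8*, *IRF9* and *IFNB1*, taken by gene name from the 58735 genes of the expression table, and all 9 were found there. Cells of the NC group received sterile deionized water (n = 3), and cells of the TNF-α group received recombinant human tumor necrosis factor-α, an inflammatory cytokine, at 10 ng/mL (n = 3), both for 24 h. The 6 libraries came from 1 cell line, for which the labels name no engineered change, and they describe the replicates of each group as separate biological replicates. The comparison asks which of these regulators changed in abundance when glioblastoma cells met TNF-α.

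IRFs are transcription factors that share a DNA-binding domain with conserved tryptophans and recognise repeats of the letters GAAA in interferon-responsive promoters. IRF3 and IRF7 lie in the cytosol until they are phosphorylated downstream of sensors of viral nucleic acids, and then switch on *IFNB1*. Secreted interferon-β acts on its receptor and assembles ISGF3, a complex that holds STAT2 and IRF9 and drives the interferon-stimulated genes. IRF1 is controlled largely by its own abundance, and its gene is a known target of NF-κB, the main factor downstream of the TNF receptor, and of the interferon-γ pathway, while IRF2 binds the same elements and can oppose IRF1. IRF4 and IRF8 are known chiefly from lymphoid and myeloid cells.

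The promoters of *IRF1* and *IFNB1* are shown because both genes are textbook targets of NF-κB, and the test called *IRF1* but not *IFNB1*. The sequences are the 250 bases before each RefSeq transcript start on GRCh38.p14, written 5′ to 3′ on the strand of the gene, with matches in capitals. *IRF1* lies on the minus strand with its window at chr5:132490774-132491023, and *IFNB1* on the minus strand with its window at chr9:21077943-21078192.
IRF1: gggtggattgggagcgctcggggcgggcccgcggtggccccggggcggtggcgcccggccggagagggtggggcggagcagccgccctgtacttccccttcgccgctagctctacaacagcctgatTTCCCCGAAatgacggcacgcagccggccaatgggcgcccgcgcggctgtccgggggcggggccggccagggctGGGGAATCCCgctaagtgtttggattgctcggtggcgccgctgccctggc
IFNB1: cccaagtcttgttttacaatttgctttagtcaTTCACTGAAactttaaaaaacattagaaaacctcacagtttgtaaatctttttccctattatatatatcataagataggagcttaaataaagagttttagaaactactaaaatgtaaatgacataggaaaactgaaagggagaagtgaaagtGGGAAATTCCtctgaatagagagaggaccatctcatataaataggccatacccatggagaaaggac
The capitals mark a GAS element (TTCNNNGAA, the site class read by STAT dimers) and a κB motif (searched as kB, the site class read by NF-κB). Both strands were searched, and the matches do not overlap each other. In the *IRF1* window the GAS match lay 124 to 116 bases and the κB match 50 to 41 bases before the start. In the *IFNB1* window the GAS match lay 218 to 210 bases and the κB match 66 to 57 bases before the start. The RefSeq table held 10 windows for 6 of the 9 genes (*IRF1*, *IRF4*, *IRF5*, *IRF8*, *IRF9* and *IFNB1*). Of these windows 2 held a κB match, those of *IRF1* and *IFNB1*, and 3 held a GAS match, the third being *IRF9* at 63 to 55 bases before the start. The pair of GAAA repeats spaced as GAAANNGAAA was in none of the 10. This pattern fixes the spacing at 2 bases, and repeats at other spacings were not counted. The *IFNB1* window holds such a stretch, gaaaactgaaa, upstream of its κB match. A window without the fixed pattern may therefore still hold GAAA repeats. Among 35116 promoters of the same length, 9.96% held the κB motif, 6.57% the GAS element and 3.02% the GAAA pair, so a match is a description of the letters and not evidence of a bound site.

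Depth was similar in both groups, with 31992167 to 37897044 reads in genes per library. TNF-α replicates 2 and 3 stood apart from the other 4 libraries. Reads in genes longer than 8 kb made up 16.6% and 17.9% of their totals against 28.8% to 29.1% in the others, and ribosomal protein genes 7.30% and 6.26% against 2.62% to 2.90%. Results are therefore also given for TNF-α replicate 1 alone against NC, where the single library was assumed to vary like the NC libraries. The line's label was checked against glial and glioma markers, of which 7 of 10 reached an FPKM of 1 in every library, among them *SOX2*, *NES* and *VIM*, while *OLIG2*, *S100B* and *CHI3L1* were at or near 0. Levels are given in FPKM, fragments per kilobase of gene scaled to the size of the library, as computed by the authors. The summed FPKM of 10 immune cell markers was 0.721 to 1.76, and *PTPRC*, *CD3E* and *MS4A1* had a value of 0 in all 6 libraries. Most of that sum was *CD14*, known from myeloid cells, at 0.660, 0.825 and 0.759 in NC and 0.528, 1.55 and 1.20 with TNF-α, and its part in the results was not tested. Of 4 endothelial and 5 fibroblast markers, *KDR*, *COL1A2* and *PDGFRA* reached an FPKM of 1 in any library. *COL1A2* was high, at an FPKM of 115 to 129 in NC and 61.8 to 91.9 with TNF-α. *KDR* was at 6.08 to 6.64 and 1.95 to 5.74, and *PDGFRA* at 2.71 to 2.94 and 0.313 to 0.959.

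To place the members against each other, their levels per gene length were compared within each group. *IRF3* was the most abundant member in both groups, with a mean FPKM of 21.7 ± 1.73 (SD, n = 3) in NC. *IRF2* and *IRF1* followed in NC at 5.45 ± 0.343 and 5.18 ± 0.565, with ranges that overlapped. *IRF5* at 1.69 ± 0.139, *IRF9* at 1.38 ± 0.237, *IFNB1* at 0.932 ± 0.355 and *IRF7* at 0.536 ± 0.127 came next, and each of these overlapped its neighbour in the order. In the TNF-α group the order was *IRF3*, *IRF1*, *IRF2*, *IRF5*, *IRF9*, *IFNB1* and *IRF7*, and only *IRF2* and *IRF5* had overlapping ranges among these neighbours. *IRF1* and *IRF2* thus overlapped in the controls and did not overlap in the treated cells. The FPKM used the merged exon length of each gene. With the longest transcript instead, *IRF1* ranked above *IRF2* in NC (7.84 against 7.37) and *IRF9* above *IRF5* (2.85 against 2.48). The longest annotated transcript of *IRF1* has 2 exons and that of *IRF2* has 9, and which transcripts the cells used was not examined. The order of *IRF1* and *IRF2* within NC thus depends on the length taken, and neither length settles it.

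**Figure D1:**
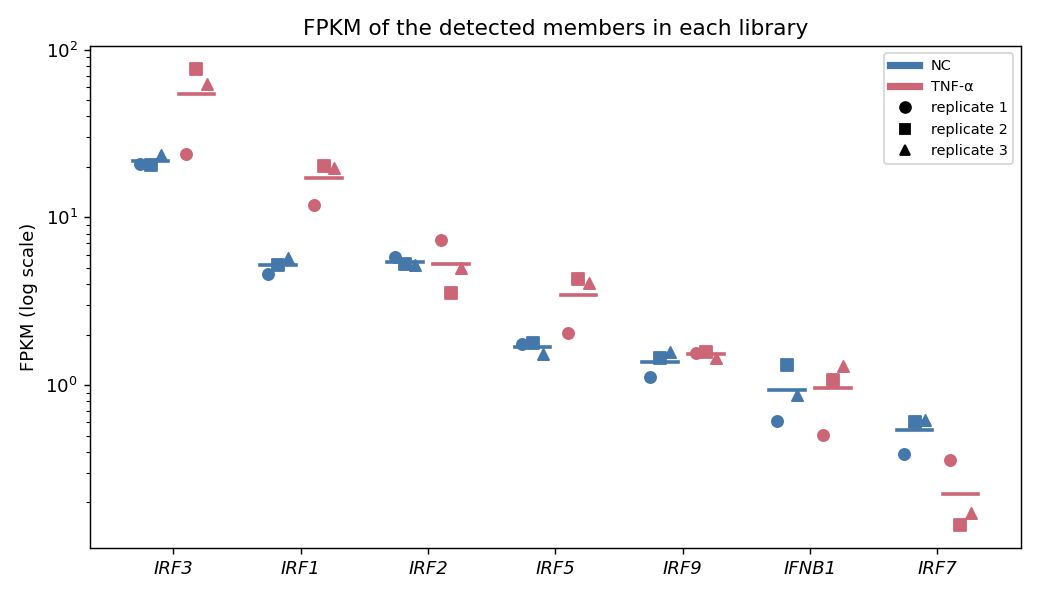
FPKM on a log scale of the 7 members with reads in every library, ordered by their TNF-α mean, for NC (blue) and TNF-α (red). Points are single libraries, symbols mark the replicate number and bars the group mean. All 3 TNF-α points of *IRF1* lie above all NC points, while for *IRF3* and *IRF5* replicate 1 of TNF-α lies close to NC and replicates 2 and 3 lie higher.

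To test which members changed, TNF-α was compared with NC with limma on log2(FPKM + 1) over the 12136 genes that reached an FPKM of 1 in 3 or more libraries. Of the 9 members 6 passed this filter (*IRF1*, *IRF2*, *IRF3*, *IRF5*, *IRF9* and *IFNB1*) and 3 did not (*IRF4*, *IRF7* and *IRF8*). Only *IRF1* passed the threshold of an adjusted p under 0.05, in the higher direction, where 0.717% of all tested genes were called higher and 0.297% lower (1.01% in all). The NC and TNF-α libraries did not overlap for *IRF1*, *IRF3* and *IRF5*, each higher with TNF-α, beside 14.8% of all tested genes that were apart in that direction and 30.1% in either. These 3 members also had an unadjusted p under 0.05, beside 24.2% of all tested genes in either direction.

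*IRF1*, the activator of antigen presentation and chemokine genes, was the only member called higher. Whether its change differed from that of the other members was not tested. In bulk RNA a change in the number of expressing cells and a change in RNA per cell cannot be told apart. *IRF1* (ENSG00000125347, chr5:132481609-132490798, minus strand) had an FPKM of 4.61, 5.18 and 5.74 in the NC libraries and, in the same order of replicates, of 11.9, 20.2 and 19.7 in the TNF-α libraries, from 1299 to 1438 reads and 2989 to 4078 reads. Every treated library was above every control library, at 2.30, 3.90 and 3.80 times the NC mean. These multiples include a difference in scaling. The library size in the FPKM was 0.693 and 0.759 of the reads in genes in TNF-α replicates 2 and 3, and 0.925 to 0.959 in the others. The group means were 5.18 ± 0.565 and 17.3 ± 4.62 (SD, n = 3 each), and the log2 fold change on the log2(FPKM + 1) scale was 1.53 ± 0.22 (SE; 95% CI 0.99 to 2.07; limma adjusted p = 0.0429). The increase ranked 74th by log2 fold change among the 12136 tested genes, and 107th by p among the 123 genes past the threshold. With TPM the log2 fold change was 1.16, and with voom on recovered reads 1.44, at all-gene medians of −0.42 and −0.21. In TNF-α replicate 1 alone the log2 fold change was 1.07, from 1 treated library that cannot give the spread among treated cultures. Without NC replicate 1, 2 or 3 the adjusted p was 0.291, 0.284 or 0.241, and without TNF-α replicate 2 or 3 it was 0.157 or 0.230, at log2 fold changes of 1.41 to 1.60, so the call depended on each of these 5 libraries while the direction did not. The call was also lost when the filter on low values was removed (adjusted p = 0.116) and when the replicate number was added as a block (adjusted p = 0.110). Without TNF-α replicate 1 the log2 fold change was 1.76 (adjusted p = 9.76e-06), in a fit that called 9630 of the 12136 genes.

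Of the exonic length of *IRF1*, 22.0% (1716 bases) is shared with *C5orf56* on the opposite strand, and the use of strand in counting is not given in the sources used here. *C5orf56* had an FPKM of 1.07 to 1.24 in NC and 0.912 to 1.19 with TNF-α, so the gene on the other strand was low in both groups. Among the 899 tested genes that the table assigns to a transcription factor family, 7 were called higher and 6 lower, and *IRF1* was the single IRF among them.

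The genes whose pattern over the 6 libraries was most like that of *IRF1* were found by the root mean square distance of log2 ratios to the NC mean, over protein-coding genes. *OPTN*, which encodes the autophagy receptor optineurin, was nearest at 0.0729, with an FPKM of 13.7 to 15.3 in NC and 30.2 to 54.5 with TNF-α. *TAPBP*, which encodes tapasin of the MHC class I loading complex, followed at 0.101 (64.1 to 68.0 and 129 to 224), and *KLF2*, a zinc-finger transcription factor, at 0.120 (9.06 to 12.1 and 18.7 to 37.1). In all 3, as in *IRF1*, replicates 2 and 3 of TNF-α were higher than replicate 1. None of them passed the threshold (limma adjusted p = 0.0511, 0.0634 and 0.105). In TNF-α replicate 1 alone their log2 fold changes were 1.03, 0.96 and 0.82. *NFKBIA* and *TNFAIP3*, feedback inhibitors of NF-κB, and *CXCL8*, an NF-κB-driven chemokine, were called higher in the treated cells, with log2 fold changes of 2.79, 2.70 and 4.12 (limma adjusted p = 0.00415, 0.0421 and 0.000996). The call of *NFKBIA* was lost without any 1 NC library (0.0556 to 0.0615), and that of *TNFAIP3* without any 1 NC library or TNF-α replicate 3 (0.205 to 0.276). *TNFAIP3* also fell short without the filter (limma adjusted p = 0.124), with TPM (0.178), with quantile normalization (0.0663) and with voom on recovered reads (0.116). *TNFAIP3* was highest in TNF-α replicate 1, at an FPKM of 57.6 against 18.9 and 26.8 in replicates 2 and 3, which is the reverse of the order seen in *IRF1*.

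*IRF2*, the factor that shares elements with IRF1, did not pass the test. *IRF2* (ENSG00000168310, chr4:184387713-184474580) had an FPKM of 5.84, 5.26 and 5.24 in NC and of 7.38, 3.57 and 4.98 with TNF-α. The treated libraries lay on both sides of the controls. The log2 fold change was −0.07 ± 0.23 (SE; 95% CI −0.63 to 0.48; limma adjusted p = 0.806). TNF-α replicate 1 alone gave 0.38, so the direction was not fixed by these libraries.

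A ratio of *IRF1* to *IRF2* within a library does not depend on the library size in the FPKM, and was examined for that reason. The FPKM ratio was 0.789, 0.985 and 1.10 in the NC libraries and reached 1.62, 5.66 and 3.95 in the TNF-α libraries. All treated libraries were above all controls, and they ranged over a wider span than the controls did. The mean log2 ratio was −0.08 ± 0.24 in NC and 1.72 ± 0.93 with TNF-α (SD, n = 3 each), a difference of 1.80 or 3.49-fold. The exact two-sided permutation test gave p = 0.1, which is the smallest that 3 against 3 libraries can give. TNF-α replicate 2 combined the highest *IRF1* with the lowest *IRF2*, and without it the difference was 1.41.

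**Figure D2:**
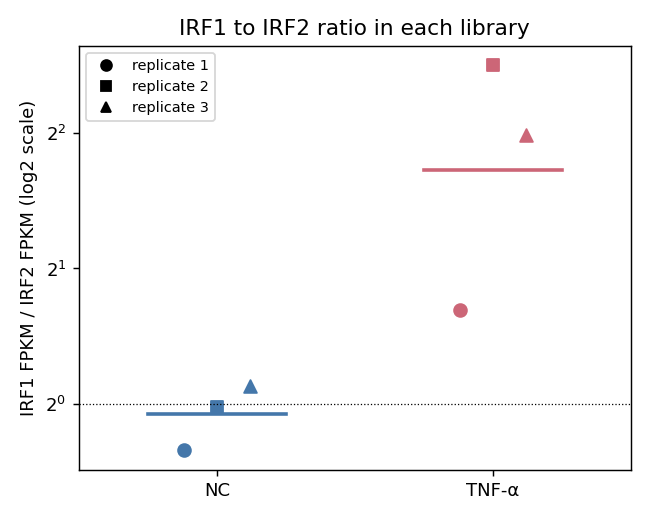
Ratio of *IRF1* FPKM to *IRF2* FPKM in each library on a log2 scale, for NC (blue) and TNF-α (red). Points are libraries, bars the mean log2 ratio, and the dotted line marks equal FPKM, a level that depends on the gene lengths used. The NC points range from 0.789 to 1.10 and the TNF-α points from 1.62 to 5.66.

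*IRF3*, the constitutive factor activated by phosphorylation, was higher in a pair of treated libraries. *IRF3* (ENSG00000126456, chr19:49659569-49665875) had an FPKM of 20.8, 20.6 and 23.7 in NC and of 23.8, 77.0 and 62.8 with TNF-α. TNF-α replicate 1 lay just above the highest control, at 1.10 times the NC mean, while replicates 2 and 3 were at 3.55 and 2.89 times. The group means were 21.7 ± 1.73 and 54.6 ± 27.5 (SD, n = 3 each), and the log2 fold change of 1.14 ± 0.43 (SE; 95% CI 0.11 to 2.17) did not pass the threshold (limma adjusted p = 0.195). Without TNF-α replicate 1 it was 1.64 (limma adjusted p = 1.5e-05), in a fit that called 9630 of the 12136 genes, and in replicate 1 alone 0.13. The GC content of *IRF3* was 59.0%, above that of 84.0% of the tested genes, and correcting for GC content and the length of the transcript lowered the log2 fold change to 0.66. *BCL2L12* shares 19.3% of the exonic length of *IRF3* on the opposite strand (734 bases) and moved in the same libraries, with an FPKM of 26.4 to 28.6 in NC and of 26.3, 78.1 and 60.2 with TNF-α. Whether reads of the shared stretch belong to one gene or the other cannot be told apart here.

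*IRF5*, a factor that acts downstream of Toll-like receptors, had the same distribution at a lower level. *IRF5* (ENSG00000128604, chr7:128937612-128950035) had an FPKM of 1.76, 1.78 and 1.53 in NC and of 2.03, 4.27 and 4.05 with TNF-α. Replicate 1 of TNF-α was again the lowest of the treated libraries, at 1.20 times the NC mean against 2.52 and 2.39 times. The log2 fold change was 0.68 ± 0.23 (SE; 95% CI 0.12 to 1.25) and did not pass the threshold (limma adjusted p = 0.195). Without TNF-α replicate 1 it was 0.94 (limma adjusted p = 4.4e-05), in a fit that called 9630 of the 12136 genes. In replicate 1 alone it was 0.17, and after the correction for GC content and length 0.26. The part of the library differences in the *IRF3* and *IRF5* values was not tested beyond these settings.

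*IRF9*, the DNA-binding subunit of ISGF3, had an FPKM of 1.12, 1.45 and 1.58 in NC and of 1.56, 1.59 and 1.44 with TNF-α. The groups overlapped. The log2 fold change of *IRF9* (ENSG00000213928, chr14:24161053-24166565) was 0.09 ± 0.13 (SE; 95% CI −0.21 to 0.40; limma adjusted p = 0.573). The value is uncertain, since *AL136295.5*, a gene on the same strand, covers all 1838 bases of the longest *IRF9* transcript. That gene had an FPKM of 0.217 to 0.547.

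*IFNB1*, the ligand that starts the autocrine interferon loop, was near the limit of the filter. *IFNB1* (ENSG00000171855, chr9:21077105-21077963) had an FPKM of 0.612, 1.31 and 0.870 in NC and of 0.507, 1.08 and 1.29 with TNF-α. These values came from 19, 37 and 24 reads and from 14, 24 and 27 reads, a sum of 80 in NC and 65 with TNF-α. The groups overlapped, and the log2 fold change was 0.01 ± 0.22 (SE; 95% CI −0.51 to 0.54; limma adjusted p = 0.962). Of the 21 protein-coding interferon genes in the table, 13 had 0 reads in all 6 libraries and 17 had at most 10 reads in each. The other 4 were *IFNB1*, *IFNE* (22 to 53 reads), *IFNL1* (2 to 22 reads) and *IFNA1* (0 to 11 reads). Interferon transcripts were therefore scarce in both groups at this depth.

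*IRF7*, which amplifies the interferon response once it is induced, was below the filter and lower in the treated libraries. *IRF7* (ENSG00000185507, chr11:612553-615999) had an FPKM of 0.390, 0.603 and 0.616 in NC from 37, 52 and 52 reads, and of 0.355, 0.147 and 0.172 with TNF-α from 30, 10 and 11 reads. The groups did not overlap, with TNF-α replicate 1 close to the lowest control and replicates 2 and 3 well under it, beside 15.3% of tested genes that were apart in the lower direction. With the filter removed, the log2 fold change of *IRF7* was −0.33 ± 0.11 (SE) with a limma adjusted p = 0.356, over 31662 genes. *IRF4* had 4 reads in NC replicate 3, 4 reads in TNF-α replicate 1 and 0 in the other libraries, and *IRF8* had 0 reads in all 6. A count of 0 allows up to 3 reads, which is an FPKM of 0.0161 to 0.0239 for *IRF8*. *IRF4* and *IRF8*, the members known chiefly from immune cells, were thus at or near 0 reads at this depth.

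As a description of the family's makeup, each factor was expressed as a share of the summed FPKM of the 8 IRF members. *IRF3* took 59.1% to 61.7% in NC and 50.6%, 72.1% and 67.4% in TNF-α replicates 1 to 3. *IRF1* took 13.4% to 14.9% in NC and 25.3%, 18.9% and 21.1% with TNF-α, so its share was higher in every treated library. *IRF2* took 13.6% to 17.0% in NC, and 15.7%, 3.34% and 5.35% in the TNF-α libraries in order of replicate. The sum itself was 34.5, 34.9 and 38.4 FPKM in NC and 47.1, 107 and 93.1 FPKM with TNF-α.

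**Figure D3:**
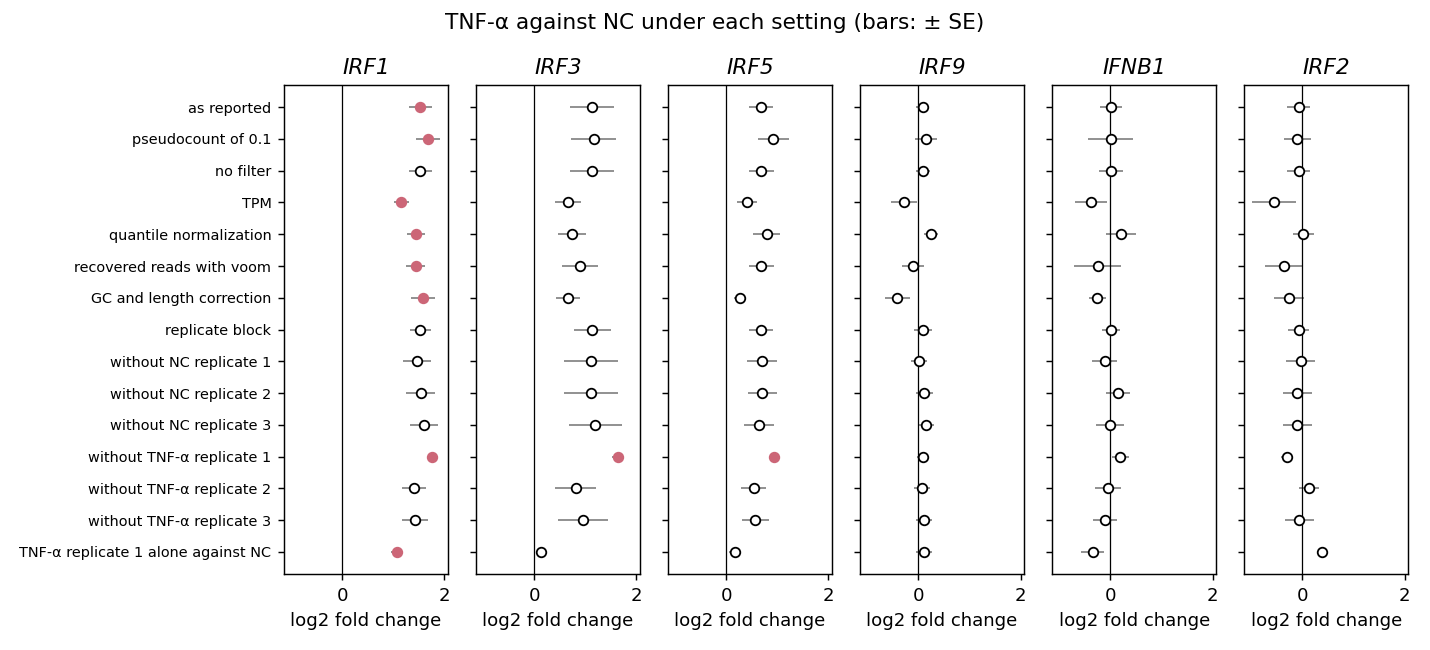
Log2 fold change of TNF-α against NC for the 6 tested members under the reported fit and 14 alternatives, with bars of ± SE and filled points where the adjusted p was under 0.05. *IRF1* stays between 1.07 and 1.76 in every setting, *IRF3* ranges from 0.13 to 1.64, and *IRF2*, *IRF9* and *IFNB1* fall on both sides of 0.

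To see what surrounded the members in their pathway, 5 lists were described by their counts and their median log2 fold change. Over all 12136 tested genes the median was 0.04. Upstream of the factors, 17 of 19 listed sensors, adaptors and kinases were tested, 1 was called higher and none lower by limma (3 at an unadjusted p under 0.05, beside 1.01% of all tested genes called and 24.2% at that unadjusted p), and the median was −0.08. The one called was *IKBKE*, the inducible kinase that phosphorylates IRF3 and IRF7, at an FPKM of 3.52, 4.25 and 5.09 in NC and of 12.2, 17.1 and 15.3 with TNF-α. All treated libraries were above all controls, with a log2 fold change of 1.59 ± 0.18 (SE; limma adjusted p = 0.0197). *TICAM1*, the adaptor of TLR3 also known as TRIF, had a log2 fold change of 1.11 and did not pass (limma adjusted p = 0.165). It passed at a smaller change after the correction for GC content and length (0.51, limma adjusted p = 0.0291). In TNF-α replicate 1 alone the log2 fold change of *TICAM1* was 0.48. *IKBKE* fell short of the threshold without any 1 of the NC libraries or of TNF-α replicates 2 and 3 (limma adjusted p = 0.0714 to 0.168), and also without the filter (0.0557) and with TPM (0.0731). In TNF-α replicate 1 alone the log2 fold change of *IKBKE* was 1.34.

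Among interferon ligands, receptors and signalling partners, 14 of 25 listed genes were tested and none was called in either direction by limma, with 5 at an unadjusted p under 0.05 (24.2% of all tested genes) and a median of −0.03. *IFNGR2*, a chain of the interferon-γ receptor, had an FPKM of 5.77, 5.40 and 7.17 in NC and of 9.70, 11.4 and 12.3 with TNF-α, with a log2 fold change of 0.77 (limma adjusted p = 0.106). *SOCS1*, a feedback inhibitor of JAK-STAT signalling, was at 0.98 (limma adjusted p = 0.164). The ISGF3 subunit *STAT2* and the receptor chain *IFNAR1*, picked after their values were seen, had log2 fold changes of −0.05 and −0.01 (limma adjusted p = 0.770 and 0.958). These genes, which read and relay interferon-β, were expressed in both groups. Among partners and brakes of the factors, 10 of 13 were tested and none was called by limma, with 5 at an unadjusted p under 0.05 (24.2% of all tested genes). Their median was 0.59, yet −0.05 in TNF-α replicate 1 alone and 0.07 after the correction for GC content and length. In this list *BATF3*, a partner of IRF4 and IRF8, had an FPKM of 2.08, 1.79 and 2.11 in NC and of 3.98, 11.2 and 9.03 with TNF-α (limma adjusted p = 0.135), and *RBCK1*, a ubiquitin ligase subunit, had a log2 fold change of 0.85 (limma adjusted p = 0.195).

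Downstream, genes known to need or bind IRF1 were compared with the genes of ISGF3. Both lists were written with earlier results of these data known, so their counts are descriptions and not independent evidence. Of 34 IRF1-linked genes 28 were tested, 3 were called higher (0.717% of all tested genes) and none lower, 27 had a log2 fold change above 0 beside 6432 of the 12136 tested genes, and the median was 0.82. Libraries did not overlap for 24 of the 28, each higher with TNF-α, beside 14.8% of all tested genes. *CXCL10* and *CXCL11*, chemokines that attract T cells, had log2 fold changes of 3.94 and 3.05 (limma adjusted p = 0.000833 and 0.00104). *CXCL10* had an FPKM of 8.31, 7.10 and 7.62 in NC and of 119, 116 and 166 with TNF-α, and all 3 treated libraries moved alike. *APOL3*, an apolipoprotein L gene, was at 1.76 (limma adjusted p = 0.0279). Like *IRF1*, it fell short without any 1 of the NC libraries or of TNF-α replicates 2 and 3 (limma adjusted p = 0.116 to 0.200), and also without the filter (0.0886) and with TPM (0.0563). The median ratio to the NC mean over the 28 genes was 0.40, 0.97 and 1.13 in TNF-α replicates 1 to 3, and the median log2 fold change was 0.65 over all libraries after the correction for GC content and length. Several of these genes, the chemokines among them, are also known NF-κB targets, and the list does not separate one factor from the other.

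Of 36 ISGF3-linked genes 35 were tested and none was called by limma, with 8 at an unadjusted p under 0.05, beside 24.2% of all tested genes. Libraries did not overlap for 12 of the 35 in the higher direction and for 1 in the lower, beside 14.8% and 15.3% of all tested genes. The log2 fold change was above 0 in 19 of the 35, and the median was 0.02, over values from −1.26 for *SAMD9* to 1.43 for *IFI35* (both named after their values were seen). The median ratio to the NC mean was 0.17, −0.09 and 0.03 in TNF-α replicates 1 to 3. *ISG20*, an exonuclease gene, had an FPKM of 1.63, 1.51 and 1.57 in NC and of 2.76, 7.17 and 7.84 with TNF-α, with a log2 fold change of 1.33 (limma adjusted p = 0.164). *UBE2L6*, the enzyme that conjugates ISG15, was at 0.93 (limma adjusted p = 0.193). In the reported fit the median of the IRF1-linked list was therefore above that of all genes. The median of the ISGF3-linked list was close to that of all genes, with members on both sides. The ISGF3-linked median moved with the setting. It was −0.28 with quantile normalization (all-gene median 0.01), 0.14 after the correction for GC content and length, and 0.19 without TNF-α replicate 2. The difference between the lists was not tested. Without TNF-α replicate 1 the listed genes *TICAM1*, *IFNGR2*, *SOCS1*, *BATF3*, *RBCK1*, *ISG20* and *UBE2L6* passed the threshold (limma adjusted p = 7.96e-06 to 0.000259), as did 9630 of the 12136 genes in that fit.

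**Figure D4:**
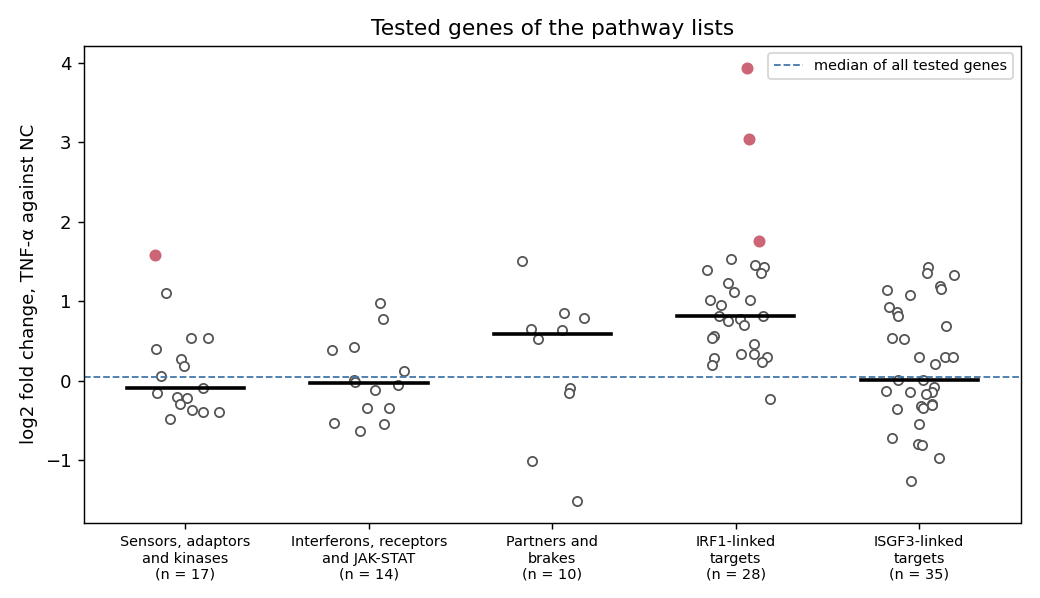
Log2 fold change of TNF-α against NC for the tested genes of the 5 lists. Each point is a gene, filled where the adjusted p was under 0.05, black bars are list medians and the dashed line is the median of all tested genes (0.04). The IRF1-linked list has its median at 0.82 with 27 of 28 genes above 0, and the ISGF3-linked list has its median at 0.02.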

How the data were processed

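RNA-seq of U251 cells was analysed in 6 libraries (3 NC, 3 TNF-α), grouped by their titles. RNA was selected with oligo(dT) beads. The submitters' processing notes name HISAT2 2.0.5, StringTie 1.3.3b, featureCounts 1.5.0, DESeq2, edgeR and GATK 3.7 without their roles. The authors deposited FPKM values per gene with gene lengths, unpooled and not log-transformed. All 58735 genes matched GENCODE release 29 (GRCh38) in identifier, position and merged exon length. Another 6 per-sample columns matched no sample described here and were not used.

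Within a library, 100% of the products of FPKM and gene length were whole multiples of a common step (tolerance 0.01 reads), which gave the reads behind each value. The library size in the FPKM was 0.925 to 0.959 of the reads in genes, but 0.693 and 0.759 in TNF-α replicates 2 and 3, which scales every FPKM of those libraries alike. Floors of 3 reads cover counting error only, and PCR duplicates were not considered.

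Genes that reached an FPKM of 1 in 3 or more libraries were tested with limma 3.58.1 in R 4.3.3 on log2(FPKM + 1) (eBayes with trend, two-sided, Benjamini-Hochberg over 12136 genes), a scale that understates the change of low genes. The *IRF1* to *IRF2* ratio was tested by exact permutation over libraries (scipy 1.17.1). The script was tested on simulated data. Promoter windows came from RefSeq. Alternatives were a pseudocount of 0.1, no filter, TPM, quantile normalization, limma-voom on recovered reads, a GC and transcript length correction (splines with 5 degrees of freedom), a replicate block, each library left out, and TNF-α replicate 1 alone. Replicate numbers were shared by the groups, but the labels do not say that they pair the libraries, so the block was an alternative only. Deviations from the group means correlated at −0.01, −0.18 and 0.12 for equal numbers. For unequal numbers they ranged from −0.16 to 0.18. With 3 libraries per group these values can neither show nor exclude pairing.

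The members and lists were chosen with earlier results of these data known. Named genes were all members, per list up to 4 genes past the threshold with the largest change (or the 2 smallest p where fewer than 2 passed), the 3 genes nearest to *IRF1*, and *NFKBIA*, *TNFAIP3* and *CXCL8*. *STAT2*, *IFNAR1*, *SAMD9*, *IFI35*, *IFI6*, *ISG15*, *BST2* and *IFIT1* were named after their values were seen, and marker genes and interferon genes were named from their lists, with *CD14* picked after its values were seen. Some genes of the lists are not reported by name here.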

Additional observations from a re-analysis of the deposited data

How the results depend on the processing

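The number of members past the threshold was 1 as reported and under a pseudocount of 0.1, TPM, quantile normalization, voom on recovered reads, the correction for GC content and length, and TNF-α replicate 1 alone. It was 0 without a filter (31662 genes tested, *IRF1* adjusted p = 0.116), and from 0 to 3 when 1 library was left out, with 3 (*IRF1*, *IRF3*, *IRF5*) only without TNF-α replicate 1. The replicate block left 0 members past the threshold (*IRF1* adjusted p = 0.110) and 24 genes in all. Whether equal replicate numbers pair the libraries is not given by the labels. Under the block *IKBKE*, *APOL3* and *TNFAIP3* also lost their calls (adjusted p = 0.0805, 0.130 and 0.0807). Over 14 alternatives *IRF1* kept its direction, at 1.07 to 1.76 and adjusted p from 9.76e-06 to 0.291, and passed in 7. All genes past the threshold numbered 123 as reported, 107 with a pseudocount of 0.1, 58 without a filter, 58 with TPM, 185 with quantile normalization, 77 with voom, 338 with the GC and length correction, 732 with TNF-α replicate 1 alone, and 10 to 9630 with 1 library left out. The all-gene median became −0.42 with TPM and −0.21 with voom, and relative to it *IRF1* was at 1.57 with TPM, and the IRF1-linked and ISGF3-linked medians at 0.83 and −0.06. Signs turned for members whose intervals span 0. *IRF2* was at 0.015 with quantile normalization, 0.38 in TNF-α replicate 1 alone and −0.30 to 0.14 with 1 library left out. *IRF9* was at −0.28 with TPM, −0.10 with voom and −0.41 with the GC and length correction. *IFNB1* was at −0.38 with TPM, −0.25 with voom, −0.25 with the GC and length correction, −0.34 in TNF-α replicate 1 alone and −0.11 to 0.19 with 1 library left out. The log2 *IRF1* to *IRF2* ratio difference was 1.61 with a pseudocount of 1 and 1.41 to 2.32 with 1 library left out (exact permutation p = 0.2, the smallest 2 against 3 libraries can give). The causes of these changes were not tested. Depth limits *IFNB1*, *IRF7* and *IRF4*, which rest on few reads.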

Other observations

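The ISGF3-linked genes stood at high levels in cells that had received no TNF-α, while *IFNB1* and *IRF7* were scarce. The FPKM of *IRF9* was also low, but it is uncertain, since *AL136295.5* on the same strand covers its longest transcript. These levels were looked at after the values were seen. Over the 35 tested genes of the list the median NC FPKM was 53.2, beside 6.91 over all 12136 tested genes, and 10 of the 35 reached a mean FPKM of 100, beside 2.88% (349) of all tested genes. *IFI6*, an interferon-induced mitochondrial protein gene, had an NC mean of 1941 ± 35.2 (SD, n = 3), the 7th highest of all genes. *ISG15*, the ubiquitin-like modifier, had 854 ± 50.5 (21st), and *BST2*, which tethers budding virus, had 690 ± 34.6 (27th). *IFIT1*, a sensor of viral RNA caps, had 150 ± 2.20 in NC and 143 ± 6.22 with TNF-α, so its groups differed little. In TNF-α replicate 1 the FPKM of *IFI6*, *ISG15* and *BST2* was 2054, 845 and 698, close to NC, and in replicates 2 and 3 it was 5788 and 5814, 4000 and 3124, and 2647 and 2119. These levels come from polyadenylated RNA at 1 time point, and no source of interferon was measured.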
